A study of Mus musculus with 4 samples.

Results

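The genes of the peroxisome, with the enzymes that begin plasmalogen synthesis, were examined in the lens of Celf1 cKO and Control mice. Members were taken by name: every gene whose symbol in the normalized table was Pex followed by a number, and 22 further named peroxisome genes. The rule found 38 genes on the array, measured by 76 probes. Of these, 49 probes of 30 genes had a detection p-value under 0.05 on at least 2 of the 4 arrays, out of 16262 such probes and 11516 genes in all. The symbol Pxmp3 stood on 0 probes, since that gene is listed as Pex2. The other 8 genes, among them Abcd2, Amacr, Crot, Ehhadh, Far2, Pex5l and Phyh, had no probe above background on any array, with unnormalized intensities of 32.1 to 54.3, and were not tested.

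RNA of 1 lens at postnatal day 6 was hybridized to each Illumina MouseWG-6 v2.0 BeadChip array. Each group had n = 2 lenses, named A and B. The Celf1 cKO mice carried 1 Celf1 lacZ knock-in allele, which is a germline null, 1 floxed allele with loxP sites around exon 5, and Pax6GFPCre, a transgene whose Cre starts in the lens placode and is also made in the pancreatic lineage. The Control mice carried the lacZ knock-in and 1 wild-type allele, so that all 4 mice had 1 null allele, and the labels do not say whether Control mice carried Cre. All mice were of mixed C57BL/6J and FVB background. Celf1 is an RNA-binding protein of the lens, and its loss there gives cataract.

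Peroxisomes are organelles that shorten very long and branched fatty acids, break down hydrogen peroxide and make the first intermediates of ether lipids. Their proteins are made in the cytosol and are brought in by the Pex proteins, or peroxins, which also assemble and divide the organelle. Plasmalogens are ether lipids of cell membranes whose synthesis starts inside the peroxisome and ends in the endoplasmic reticulum, and inherited loss of Agps, Gnpat or Pex7 gives a disorder in which cataract is a common sign.

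Values are log2 signal after background correction and quantile normalization, and a change is cKO minus Control on that scale. A gene was called elevated or reduced where its adjusted p from limma was under 0.05, its change was beyond 0.58 in either direction and its mean signal was over 4.6. Of the 30 tested genes, 1 was called, which is 3.33% of them beside 11.7% of all genes. The called gene was Agps, elevated in cKO, while 6.01% of all genes were called elevated. No member was called reduced, beside 5.66% of all genes. At an unadjusted p under 0.05 in limma, 6 members were higher and 1 was lower in cKO, or 23.3% of members beside 31.9% of all genes. Among the 6, Pex13 and Acaa1b were detected on the cKO arrays only, so that the detection filter favoured their direction.

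The members as a group lay close to the rest of the array. Their median log2 fold change was 0.10 beside 0.01 for all genes, with 19 above 0 and 11 below (63.3% above 0 beside 51.1% of all genes). These counts followed the scaling, with 30 above 0 under no normalization or the same median over all probes, and 10 above and 20 below with the same median over the probes detected on all arrays. Relative to the median of all genes, 19 were above and 11 below under these 3 scalings, which differ only by a constant per array and so give the same relative values. Of the 19 above 0 as reported, Pex13, Acaa1b and Pxmp2 passed the detection filter only through the cKO arrays, which favours a value above 0. With detection required on all 4 arrays the medians were 0.01 for members and -0.03 for all genes. Their median absolute log2 fold change was 0.18 beside 0.25 for all genes. The 95% confidence interval of the change lay wholly within ±0.58 for 18 members (60%) beside 38.5% of all genes. The cKO and Control values did not overlap for 16 members, 10 of them higher and 6 lower, which is 53.3% beside 62.3% of all genes.

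**Figure D1:**
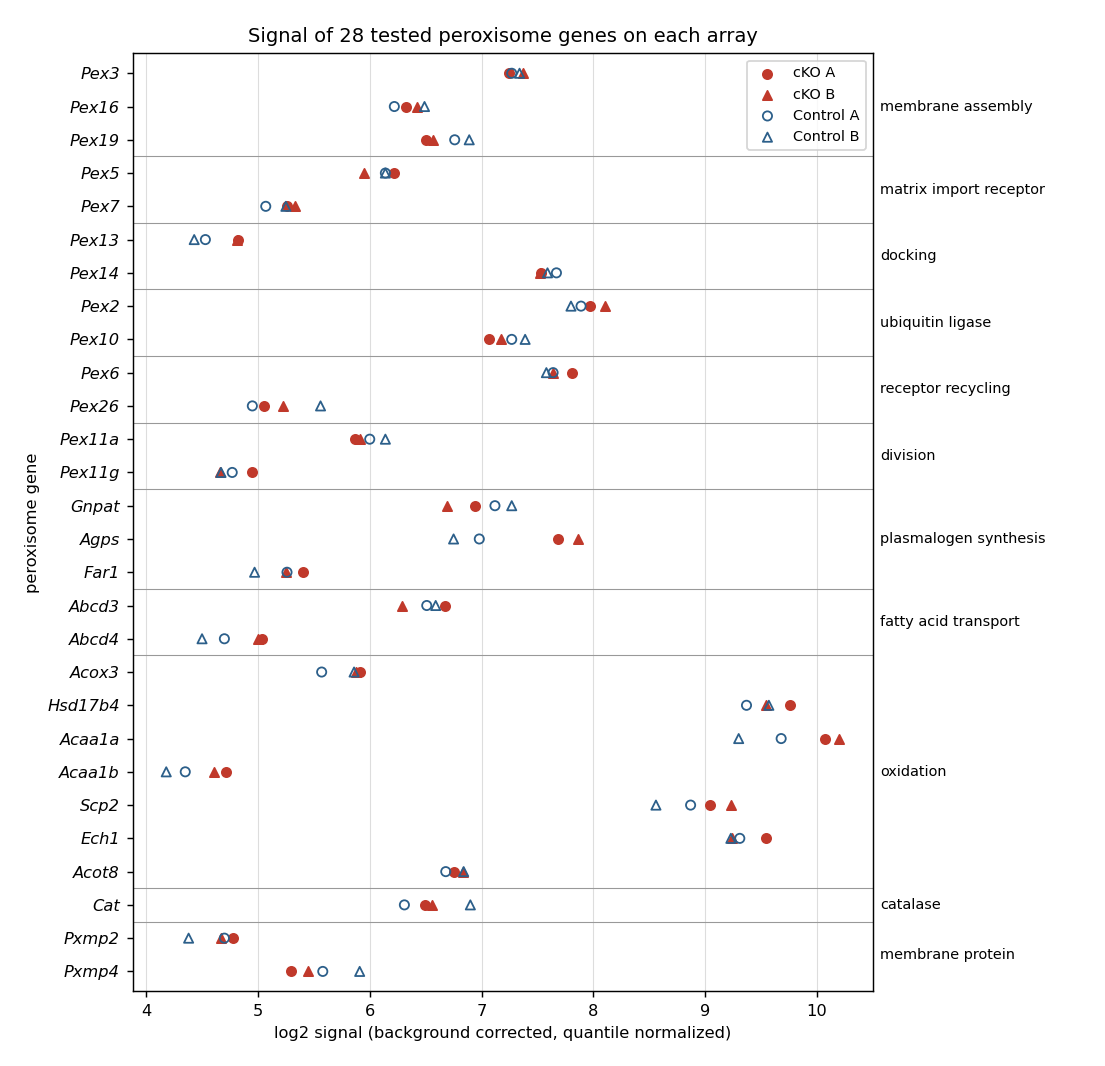
Signal of 28 tested peroxisome genes on each array, ordered by role. The x axis is log2 signal, filled red symbols are cKO and open blue symbols are Control (circles A, triangles B). The cKO and Control symbols of Agps stand apart by more than those of any other gene shown, while most Pex genes have all 4 symbols close together.

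The pair of enzymes that lead to the ether bond stood on opposite sides of 0 as reported, and of the pair only Agps was called. Gnpat acylates dihydroxyacetone phosphate, and Agps then exchanges the acyl chain for the fatty alcohol that gives the ether bond. Agps rose 1.88-fold in cKO, and Gnpat was the only member with an unadjusted p under 0.05 in limma that was lower. After adjustment Gnpat did not pass the test, and its sign depended on the scaling. Far1, which makes the fatty alcohol, was at 0.21 and did not pass the test. Far2, a second fatty acyl-CoA reductase, was not above background.

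Agps had 2 probes, both on chromosome 2, + strand, and Gnpat had 1, on chromosome 8, + strand. The first 30 bases of each 50-base probe are shown because the contrast between these enzymes rests on these 3 probes. Positions are those of the files, which name no genome build, so no exon or UTR annotation of that build was set against them.
Agps probe 7320270, chr2:75767065-75767114: actctgacatgctaacctgaagtgtgttgc
Agps probe 6940598, chr2:75767415-75767464: tggcttggctcagggctctatgctccatta
Gnpat probe 5390669, chr8:127413495-127413544: tactgccactcagattcccacacctacccc

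The Agps probes lie 350 bases apart in 1 transcript record and share no run of more than 7 bases. The first had unnormalized intensities of 225.2 and 267.2 in cKO A and B and of 107.2 and 81.7 in Control A and B. The second had 358.5 and 433.3 in cKO, and 167.9 and 115.5 in Control. Both probes were brighter on both cKO arrays than on either Control array, but these values are unnormalized and the cKO arrays were brighter overall. The Gnpat probe was brighter there too, at 178.3 and 164.5 in cKO and 143.2 and 125.6 in Control. Taken alone, the first probe changed by 0.95 ± 0.16 (SE) on the log2 scale and the second by 0.87 ± 0.18, with adjusted p over all probes of 0.0158 and 0.026 in limma. These 2 were the only called probes among the 49 of the members, beside 11.3% of all probes called.

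Averaged over its probes, Agps had a log2 signal of 7.68 and 7.86 in cKO A and B and of 6.98 and 6.75 in Control A and B. The groups did not overlap, and the gap between them was wider than the gap within either. The log2 fold change was 0.91 ± 0.16 (SE), with a 95% confidence interval of 0.54 to 1.28, or 1.46-fold to 2.43-fold (limma, adjusted p = 0.0184). The call was lost without cKO A (adjusted p = 0.0545), without cKO B (0.122) and without Control B (0.0799), with log2 fold changes of 0.99, 0.81 and 0.81. Without Control A it held, at 1.04 (adjusted p = 0.0314).

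Gnpat had a log2 signal of 6.94 and 6.69 in cKO and of 7.12 and 7.27 in Control. The groups did not overlap, but the change of -0.38 ± 0.16 (SE) did not pass the test (limma, adjusted p = 0.152), with a 95% confidence interval of -0.75 to -0.01. The sign of this value depended on the scaling, since Gnpat was at 0.41 with no normalization between arrays and at 0.37 with the arrays set to the same median over all probes, where the median of all genes was 0.57 and 0.53. Relative to the median of all genes, Gnpat ran from -0.49 to -0.16 and Agps from 0.74 to 1.14 over the alternatives, several of which cannot change a fold.

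The difference between Agps and Gnpat within an array does not depend on a shift of the whole array. Agps minus Gnpat on the log2 scale was 0.74 and 1.17 in cKO and -0.14 and -0.53 in Control. The cKO and Control differences did not overlap, and their means stood 1.29 apart. This contrast was chosen after the values were seen and was not tested, and since the probes differ, it does not say which transcript was the more abundant. Far1 had a log2 signal of 5.40 and 5.25 in cKO and of 5.26 and 4.97 in Control, and the groups overlapped. Its change of 0.21 (95% confidence interval -0.17 to 0.60) did not pass the test (limma, adjusted p = 0.402).

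**Figure D2:**
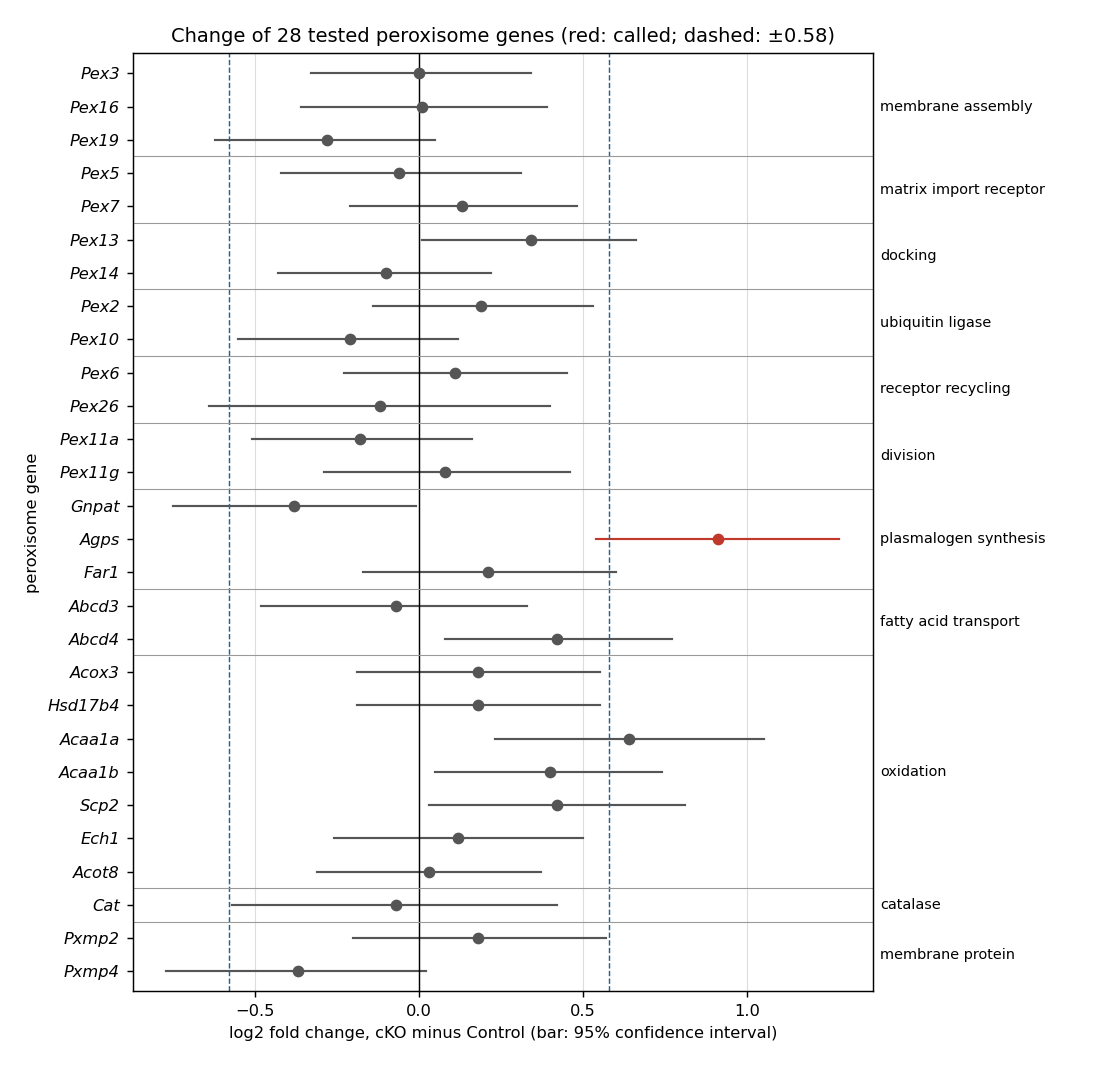
Change of 28 tested peroxisome genes between cKO and Control, ordered by role. The x axis is the log2 fold change from limma, the bars are 95% confidence intervals, and the dashed lines mark ±0.58. Agps at 0.91 is the called gene (red), Acaa1a at 0.64 has an interval from 0.23 to 1.05, and the 13 Pex genes shown lie between -0.28 and 0.34.

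Of the enzymes of fatty acid oxidation none was called, beside 11.7% of all genes. Of the 7 tested, Acaa1b was detected on the cKO arrays only, and the other 6 (Acox3, Hsd17b4, Acaa1a, Scp2, Ech1 and Acot8) had a log2 fold change above 0, with a median of 0.18. Acaa1a and Scp2 of these, and Acaa1b, had an unadjusted p under 0.05 in limma (42.9% of the 7 beside 31.9% of all genes). With the arrays set to the same median over the probes detected on all arrays, where the median of all genes was -0.19, 5 of the 7 were above 0, and 6 were above the median of all genes. For 4 of the 7, Acaa1b among them, the groups did not overlap (57.1% beside 62.3% of all genes). Ehhadh, Amacr, Crot and Phyh, which serve the oxidation or export of straight and branched chains, were not above background.

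Acaa1a, a thiolase that splits off the shortened chain in the last step of a beta-oxidation cycle, was nearest to a call. It had a log2 signal of 10.07 and 10.20 in cKO and of 9.68 and 9.30 in Control. Both cKO values were above both Control values, and the Control values were further apart than the cKO values. The log2 fold change was 0.64 ± 0.17 (SE), with a 95% confidence interval of 0.23 to 1.05, and did not pass the test (limma, adjusted p = 0.0564). It was called under 10 of 21 alternatives, among them cyclic loess (0.67, adjusted p = 0.0486) and the fit without Control A (0.83, adjusted p = 0.0395). It was not called without cKO A (0.70, adjusted p = 0.155), without cKO B (0.58, 0.273) or without Control B (0.45, 0.165).

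Acaa1b encodes the second peroxisomal thiolase, and the probes of both genes lie on chromosome 9. The first 30 bases of each are shown because paralogs can share a probe's target.
Acaa1a probe 3180022, chr9:119259346-119259395, + strand: tgggacaccctggttgcaaagccatttgta
Acaa1b probe 4780528, chr9:119057257-119057306, - strand: gtgggcactggggcatccaatccggttctc
The whole 50-base probes share no run of more than 5 bases and match at no more than 19 bases at any offset without gaps. Acaa1b had a log2 signal of 4.71 and 4.61 in cKO and of 4.35 and 4.18 in Control, where it was not well above background on either array. Its measured change of 0.40 did not pass the test (limma, adjusted p = 0.117), and no fold is given because the bound was under 1. The value was -0.28 with the arrays set to the same median over the probes detected on all arrays.

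Scp2, which makes both a branched-chain thiolase and a sterol carrier protein, had a log2 signal of 9.04 and 9.23 in cKO and of 8.87 and 8.56 in Control. The groups did not overlap, and the change was 0.42 ± 0.17 (SE; limma, adjusted p = 0.138). Its 3 retained probes gave 0.22, 0.52 and 0.52, and on the third, placed by the files at chr4:107553406-107553455, Control B was at 9.48 while the other arrays were at 10.36 to 10.51. Hsd17b4, the bifunctional protein of the middle steps, was at 0.18, and Acox3, an oxidase for branched chains, was at 0.18. Ech1, an isomerase for unsaturated chains, was at 0.12, and Acot8, a thioesterase, was at 0.03, with probes from -0.14 to 0.30. Adjusted p of these 4 was 0.462 to 0.897 in limma.

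No peroxin was called, beside 11.7% of all genes. Pex13 alone (6.67% beside 31.9% of all genes) had an unadjusted p under 0.05 in limma, and it entered the test only through the cKO arrays. Of 17 Pex genes on the array 15 were tested, with a median log2 fold change of 0.005 beside 0.01 for all genes. The 13 described here ran from -0.28 to 0.34. The 95% confidence interval lay within ±0.58 for 11 of the 15, or 73.3% beside 38.5% of all genes. For 8 of them the groups did not overlap, 4 higher and 4 lower, or 53.3% beside 62.3% of all genes.

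Among the proteins that place membrane proteins, Pex3 (0.00), Pex16 (0.01) and Pex19 (-0.28) had limma adjusted p of 0.985, 0.961 and 0.214. Pex19, the receptor for newly made membrane proteins, was at 6.50 and 6.57 in cKO and at 6.76 and 6.89 in Control, with probes at -0.48 and -0.09. Its groups did not overlap. The receptors that carry matrix enzymes in were Pex5, at -0.06, and Pex7, at 0.13 (adjusted p = 0.83 and 0.566). Pex5l, a relative of Pex5, was not above background.

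Pex7 brings in enzymes with the second type of targeting signal, among them Agps and the Acaa1 thiolases. Its 2 probes overlap, and the first 30 bases of each are shown with the bases common to both probes in capitals, since they are not independent measurements.
Pex7 probe 4780221, chr10:19608479-19608528, - strand: ggatgtgaagaccacAGGAGTACGGATTGT
Pex7 probe 6840671, chr10:19608465-19608514, - strand: AGGAGTACGGATTGTGATTCCAGCACATCA
The probes share a run of 35 bases, although their positions imply an overlap of 36. The first was above background only on the cKO arrays, with a log2 fold change of 0.23, and the second on all 4 arrays, with 0.03. Over both, Pex7 was at 5.26 and 5.33 in cKO and at 5.07 and 5.25 in Control, with a 95% confidence interval of the change from -0.21 to 0.48. The groups did not overlap but lay next to each other.

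At the docking site of the import pore, Pex13 had a log2 signal of 4.82 and 4.81 in cKO and of 4.53 and 4.43 in Control. It was not well above background on either Control array, and its measured change of 0.34 did not pass the test (limma, adjusted p = 0.147). The value was -0.26 with the arrays set to the same median over the probes detected on all arrays. Its partner Pex14 was at -0.10 (adjusted p = 0.634). The ubiquitin ligase that marks the receptor for recycling was at 0.19 for Pex2 and -0.21 for Pex10 (adjusted p = 0.394 and 0.346).

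Pex6, an ATPase that pulls the receptor out again, was at 0.11 (adjusted p = 0.623), and Pex26, its membrane anchor, was at -0.12 (adjusted p = 0.74). The Pex11 proteins elongate the organelle before it divides, and Pex11a was at -0.18 and Pex11g at 0.08 (adjusted p = 0.429 and 0.755). Both had intervals within ±0.58.

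The transporters and remaining members also gave no call, and of these Abcd4 alone had an unadjusted p under 0.05 in limma. Abcd3, which takes fatty acids into the peroxisome, was at -0.07 with a 95% confidence interval of -0.48 to 0.33. Abcd4, a member of the same transporter family that acts in lysosomal cobalamin export, was at 5.04 and 5.0 in cKO and at 4.70 and 4.50 in Control. Its groups did not overlap, and its change of 0.42 did not pass the test (limma, adjusted p = 0.101), with probes at 0.19, 0.50 and 0.58. The last of these was detected on the cKO arrays only and the other probes on both cKO arrays and 1 Control array, so that the detection filter favoured a value above 0. Abcd4 was at -0.10 with the arrays set to the same median over the probes detected on all arrays. The median of all genes was -0.19 there. Abcd2 was not above background. Catalase, which breaks down hydrogen peroxide, had Cat signals of 6.49 and 6.56 in cKO inside the Control range of 6.31 to 6.90, and a change of -0.07 (adjusted p = 0.836). Pxmp2, a membrane channel, was at 4.78 and 4.67 in cKO and at 4.70 and 4.38 in Control, where it was not well above background. Pxmp4, a membrane protein, was at -0.37 (adjusted p = 0.176), with the groups not overlapping.

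Probes of 1 gene did not always move alike. The 12 genes with more than 1 retained probe had ranges between probes of 0.08 (Agps) to 0.44 (Acot8) on the log2 fold scale. In 4 of them (Abcd3, Acot8, Pex3 and Pex5) the probes had opposite signs.

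A wider list of 72 genes, made of further peroxisome genes, ether lipid genes and genes of the PPAR receptors that induce peroxisomal oxidation, held 51 tested genes and 8 called ones, or 15.7% beside 11.7% of all genes. Of the 35 tested further peroxisome genes, 3 rose and 3 fell (17.1% called beside 11.7% of all genes). None of the 9 tested ether lipid genes was called, with a median of 0.20 beside 0.01 for all genes. Of these 9, 1 had an unadjusted p under 0.05 in limma (11.1% beside 31.9% of all genes). Of the 7 tested PPAR genes 2 fell (28.6% called beside 11.7%), and the other 5 had values above 0 (71.4% beside 51.1%). The highest of these, named after its value was seen, was Plin2, which coats lipid droplets, at 0.92 (limma, adjusted p = 0.0559).

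The 3 that rose serve different tasks. Nudt7, a hydrolase of coenzyme A, was at 7.17 and 7.34 in cKO and at 6.70 and 6.48 in Control, a change of 0.67 (limma, adjusted p = 0.0386). Mff, the receptor for the fission of mitochondria and peroxisomes, was at 7.99 and 7.89 against 7.30 and 7.24, a change of 0.67 (adjusted p = 0.029). Idh1, which makes NADPH in cytosol and peroxisome, was at 8.98 and 8.94 against 8.49 and 8.17, a change of 0.63 (adjusted p = 0.0494). Both cKO values were above both Control values in each of the 3. Of the 21 alternatives Idh1 was called under 10, Nudt7 under 9 and Mff under 13. None of the 3 was called with no background correction or with normexp and an offset of 50. Idh1 and Mff were at 0.58 under both, and Nudt7 at 0.46 and 0.45. Adjusted p stayed under 0.05 in limma, so that only the fold threshold was missed. Nudt7 was an average of 2 probes. With the brightest probe, or with detection required on all arrays, it was at 0.48 and not called.

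The genes that fell included the largest changes of the list. Gstk1, a glutathione transferase of peroxisomes and mitochondria, fell 2.92-fold, from 7.48 and 7.87 in Control to 6.41 and 5.85 in cKO (-1.54 ± 0.23 SE; limma, adjusted p = 0.0126). Uox, the urate oxidase, was at 6.58 on both Control arrays and at 5.57 and 4.83 in cKO, a 2.60-fold fall (adjusted p = 0.0194). The groups of both genes were wide apart, and cKO B was the lower of the cKO arrays in each. Mvk, the mevalonate kinase of sterol and isoprenoid synthesis, was not above background on either cKO array, with 4.54 and 4.45 against 5.31 and 5.21 in Control. Its change was -0.76, with a 95% confidence interval of -1.09 to -0.43 (limma, adjusted p = 0.021). Set against the lowest signal among detected probes, the fall was 1.6-fold, without sampling error. With no background correction the change was -0.41, and with normexp and an offset of 50 it was -0.35, and neither was called. Mvk passed the detection filter through the Control arrays only, which favours a lower value in cKO. Ppard, a nuclear receptor for fatty acids, fell from 7.53 and 7.47 to 6.70 and 6.45 (-0.93, adjusted p = 0.0163). Gstk1 was called under 16 of the 21 alternatives, and Uox and Ppard under 14 each. Mvk was called under 8 of the 18 in which it was tested.

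None of the 7 calls described held without cKO B or without Control B, where Mvk was on too few arrays to be tested, although the log2 fold changes kept their sign (Gstk1 -1.24 and -1.38, Uox -0.98 and -1.44, Mff 0.71 and 0.65). Gstk1 and Ppard stayed called without cKO A and without Control A, Uox without cKO A, and Idh1, Nudt7 and Mff without Control A. Where probes below background were averaged in as well, Mff was at 0.35, Nudt7 at 0.38, Uox at -0.64 and Ppard at -0.47. With no normalization between arrays Ppard was at -0.13, or -0.70 relative to the median of all genes.

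**Figure D3:**
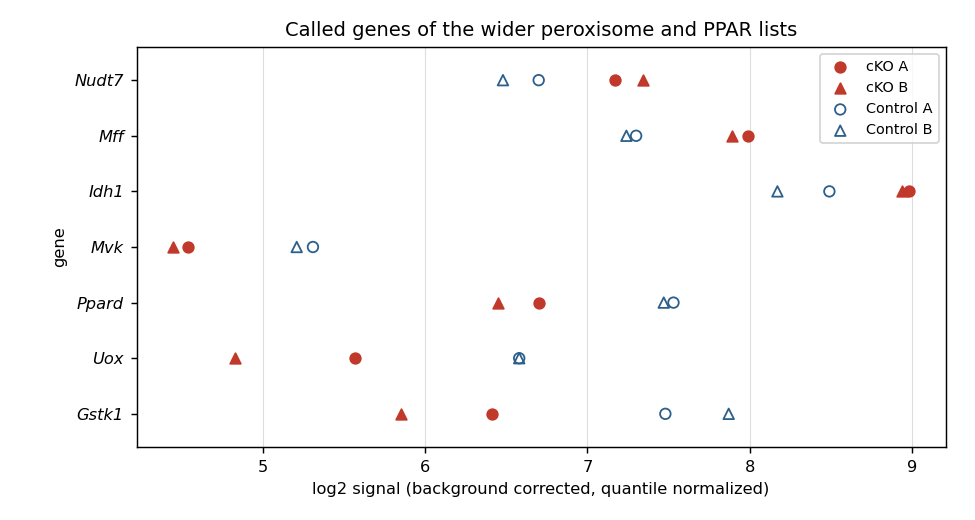
Log2 signal (x axis) of 7 called genes of the wider peroxisome, ether lipid and PPAR list on each array, with filled red symbols for cKO and open blue symbols for Control (circles A, triangles B). Nudt7, Mff and Idh1 have both cKO symbols to the right of both Control symbols, and the other 4 have them to the left.

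Other measures moved with genotype. Celf1, the targeted gene, fell from 8.78 and 8.62 in Control to 7.51 and 7.01 in cKO (limma, adjusted p = 0.0107), and its probes were not placed against exon 5. Xist was at 7.48 and 7.33 in cKO and at 4.26 and 4.39 in Control, while Ddx3y, of the Y chromosome, was at 6.86 and 4.83 in cKO and at 9.06 and 8.88 in Control, so that sex-linked transcripts and genotype cannot be told apart. For Ddx3y, cKO A lay between cKO B and the Control arrays while its Xist was as high as that of cKO B, and the labels give no sex by which to read this. The cKO arrays were the brighter ones, with a 99th percentile of unnormalized intensity of 3209 and 3444 against 2158 and 1699, and brightness and genotype cannot be told apart either.

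The lens label was checked against marker genes. All 7 lens markers were above background, and Bfsp2 among them fell, as did Foxe3 of the 4 tested lens epithelium markers. Of 5 macrophage markers 4 were tested, Cd68 and C1qb were called elevated but were not well above background on either Control array, Csf1r (-0.11) and Aif1 (-0.07) did not pass the test, and the summed signal of the 4 was 126.6 and 123.4 in cKO against 100.4 and 104.4 in Control, with C1qa not above background. Of 3 tested blood markers Slc4a1 fell, with sums of 788.5 and 364.3 in cKO and 658.3 and 545.2 in Control. The 4 vessel markers gave no call (sums of 184 to 214.7 on the 4 arrays). Of 5 retina markers 1 was tested with no call (Pde6b, limma, adjusted p = 0.0597). Pde6b had a log2 signal of 4.87 and 4.90 in cKO and of 4.43 and 4.37 in Control, where it was not well above background. Sag, Rcvrn and Crx were not above background, and no pigment or muscle marker was above background. The part of these cells in the change of Agps or of any other peroxisome gene was not tested, and in RNA of a whole lens fewer cells of a type and less RNA per cell cannot be told apart.

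**Figure D4:**
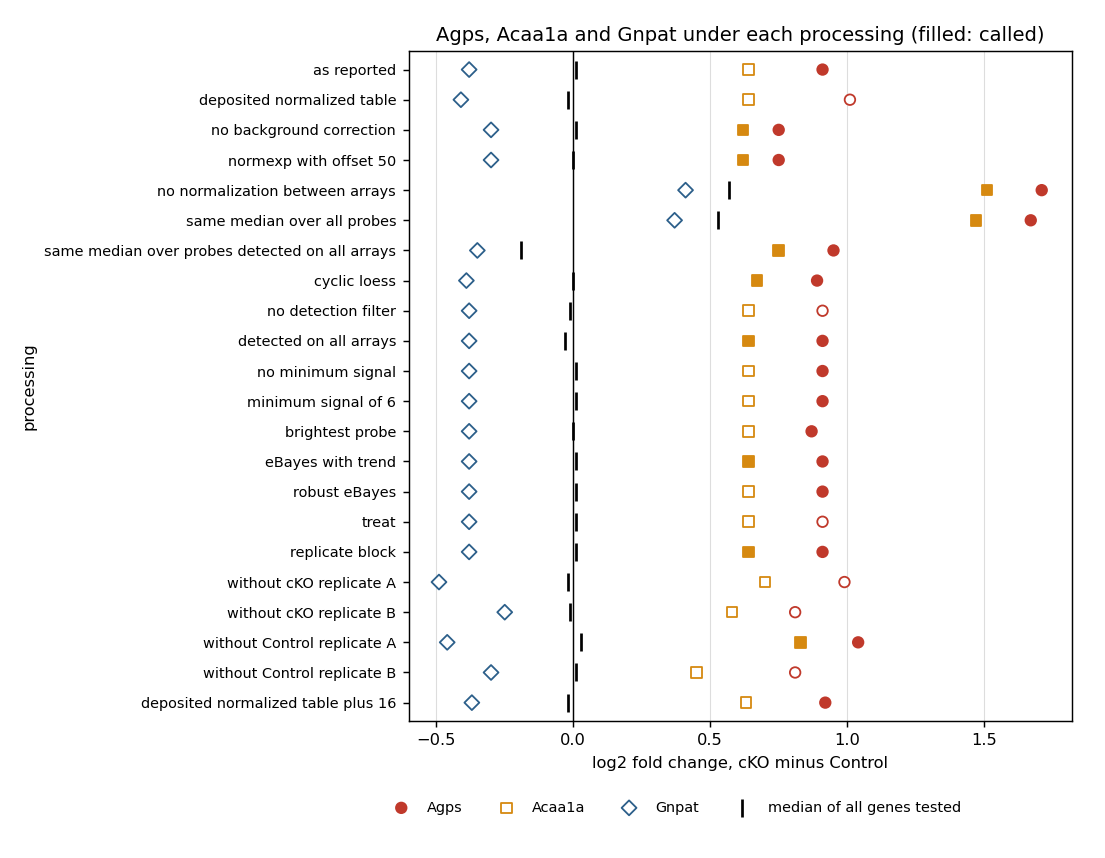
Log2 fold change (x axis) of Agps, Acaa1a and Gnpat as reported (top) and under 21 other ways of processing, with the median of all genes as a bar and filled symbols where the gene was called. Agps lies between 0.75 and 1.71 and was called under 15 of the 21, Acaa1a under 10 and Gnpat under none.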

How the data were processed

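The authors deposited unnormalized and normalized signal intensity for each probe, exported from the scanner software, with a detection p-value that ranks a probe against negative control beads. Of 45281 probes, 18 lines with shifted cells were left out. Values were computed here from the unnormalized intensity with neqc of limma (version 3.58.1, R 4.3.3; offset 16), which corrects background, quantile normalizes and takes log2. A probe was retained where its detection p-value fell below 0.05 on 2 or more arrays. Probes were named through RefSeq gene tables, except 8344 of 45263 that kept the symbol of the files, and retained probes were averaged per gene. The count model that the study applied to array signal was not used, since these values are intensities. All 4 samples entered 1 fit by lmFit and eBayes, two-sided, without a replicate block, with Benjamini-Hochberg adjustment over all genes tested, and the script was tested on simulated data. Replicates are single lenses, with 2 per group. The p-values, SEs and intervals rest on the spread between these lenses. For each gene, eBayes draws that spread toward a value shared by all genes tested. An exact permutation test of 2 against 2 cannot go below p = 0.333. Some genes were above background on neither array of a group. The fold of such a gene was set against the higher of its own value and the lowest signal among detected probes. That bound allows for background but not for sampling error.

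The members, the gene lists and the alternatives were chosen with earlier results of these data known. By rule, the members, the called genes of the wider list, Celf1, Xist and Ddx3y are named, and Plin2 and single cell type markers were named after their values were seen. A few of these genes are counted but not reported here by name. Tables were read with Python 3.11.15. Depth does not apply to arrays: 14180 to 16925 probes were detected per array, and 2 arrays per group limit the precision. The replicate letters A and B were not used as pairs, since the labels do not say that a letter marks a shared litter or day.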

Additional observations from a re-analysis of the deposited data

How the results depend on the processing

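With 2 arrays per group, counts of calls moved with most choices, and the scaling between arrays moved them most. The 1 called member became 19 with no normalization between arrays and 18 with the same median over all probes (median of all genes 0.57 and 0.53, 97.7% and 97.3% of all calls elevated beside 51.5% as reported), and the 8 called genes of the wider list became 31 and 30, and the 2 called probes 30 and 28. With the same median over the probes detected on all arrays (median of all genes -0.19, 24.8% of calls elevated) the counts were 2 members, 13 wider genes and 4 probes. Under the first 2 scalings values above 0 were called for Cat (0.67 and 0.63), Pex14 (0.73 and 0.69) and Pex5 (0.62 and 0.58), and under the first for Pex10 (0.60). So were single probes of Abcd3 (0.62 in the first, and 0.65 and 0.61), Acot8 (0.73 and 0.69), Pex3 (0.69 and 0.65) and Pex5 (0.67 and 0.64). All of these were below 0 as reported. The brightness of the arrays and genotype cannot be told apart.

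Acaa1a joined Agps, for 2 called members, with no background correction, normexp with offset 50, cyclic loess, detection on all arrays, eBayes with trend and the replicate block. With no background correction the wider list had 5 calls, with normexp and offset 50 it had 4, and with a minimum signal of 6 it had 5. The deposited normalized table, no detection filter and treat gave 0 members, 0 wider genes and 0 probes. For all genes the deposited table gave 7 calls in place of 1344, but 1190 with 16 added to each value, an alternative chosen after seeing the data. No detection filter gave 155 and treat 84.

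Leaving out 1 array at a time gave 0 to 2 members, 0 to 6 wider genes and 0 to 3 probes, and 113 (without Control B) to 1315 calls over all genes. In these fits the lone sample is assumed to vary like the other group. As a pairing of replicate letters was not stated, the replicate block is only an alternative. It gave 2 members, 9 wider genes and 3 probes, and the A minus B differences of the groups were not correlated (-0.01 across genes). The median of the members minus that of all genes was 0.01 to 0.10 under the 21 alternatives and 0.09 as reported.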
